A study of Mus musculus with 6 samples.

Results

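The sterol regulatory element binding proteins (SREBPs) are membrane-bound transcription factors that switch on the genes of lipid synthesis. When sterols in the endoplasmic reticulum are scarce, the escort protein SCAP carries them to the Golgi apparatus, where proteases release the active fragment. SREBP-2, encoded by Srebf2, acts mainly on cholesterol synthesis, and SREBP-1, encoded by Srebf1, mainly on fatty acid synthesis. Alveolar macrophages take up and break down surfactant, the lipid film of the airspaces, and therefore handle much cholesterol and phospholipid. Described here are 36 genes of this system, chosen by symbol from the 46078 genes of the count table. They form a sterol arm of 21 genes, Srebf2 and the genes of cholesterol synthesis and its control, and a fatty acid arm of 15 genes, Srebf1, Scap and the genes of fatty acid synthesis, elongation and desaturation. All 36 passed the filter on low counts.

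The genes were compared in polyadenylated RNA of alveolar macrophages sorted from lung. The mice had received no treatment. Car4fl/fl-CD11cCre mice (3 mice) carried loxP-flanked Car4 alleles and Cre recombinase under CD11c control, CD11c being an integrin subunit encoded by Itgax. Car4fl/fl mice (3 mice) carried the same floxed alleles without the Cre. Car4 encodes the membrane-anchored carbonic anhydrase 4. Mice with the Cre and intact Car4 were not among the groups: transgene and loss of Car4 cannot be told apart, and CD11c-driven Cre can also act in other CD11c-expressing cells of these mice. Each mouse gave 1 library.

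The libraries held between 53824475 and 65443314 counts, at which 3 counts correspond to 0.0465 to 0.0557 CPM (counts scaled to library size with TMM normalisation, used throughout). Car4 fell to 40.2, 46.9 and 36.3 CPM in the Cre libraries, against 499, 385 and 270.4 CPM in the Car4fl/fl libraries (log2 fold change -3.23 ± 0.22 SE, edgeR adjusted p = 0.0047). All 12 alveolar macrophage markers were detected in every library, with 6 log2 fold changes above and 6 below 0, from -0.41 to 0.77. DESeq2 called 3 of them higher and 1 lower, against 2.37% and 1.51% of all genes. Siglecf, the one lower, averaged 547 ± 71.7 CPM in Cre libraries and 708 ± 44.5 CPM in Car4fl/fl libraries (SD, n = 3 each), and Chil3, a secreted lectin and the most abundant of those higher, averaged 26611 ± 7111 CPM in Cre libraries and 15628 ± 1912 CPM in Car4fl/fl libraries. The 12 summed to 29068, 37618 and 42649 CPM in Cre libraries, against 24074, 23490 and 27030 CPM in Car4fl/fl libraries, without overlap. These sums, with means of 36445 and 24865 CPM, were mostly Chil3, and the median log2 fold change of the 12 was -0.0099. On the leading principal component (54.0% of variance), the second and the third Cre library lay at 28.7 and 27.1, the first at -1.41, and the Car4fl/fl libraries between -20.1 and -14.4.

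Promoters of SREBP targets are known for a sterol regulatory element placed near sites of the co-factors NF-Y and Sp1. RefSeq promoters of GRCm38.p6 (250 bases before to 50 after a start) were matched by symbol for 17 of the 21 sterol arm genes and 12 of the 15 fatty acid arm genes, and searched on both strands. CCAAT, the core recognised by NF-Y, was found in a promoter of 94.1% of the sterol arm genes with one, 66.7% of the fatty acid arm genes, 42.4% of the 10239 tested genes with a promoter and 41.1% of all 27025 genes with one. GGGCGG, a core recognised by Sp1, was found for 94.1% of sterol arm genes, 58.3% of fatty acid arm genes, 66.3% of tested genes and 38.2% of all genes. The sterol element TCACNCCAC was found for Hmgcs1 alone among the members, and in 1.44% of all genes. Its shorter form CACNCCAC, contained in it, was found for Hmgcs1, Insig1 and Acat2, which is 17.6% of sterol arm genes, against none of the 12 fatty acid arm genes and 7.12% of all genes. CACGTG, the E-box that SREBP-1 can also bind, was found for 4 sterol arm genes (Hsd17b7, Sc5d, Dhcr7 and Insig1), 2 fatty acid arm genes (Scap and Elovl5) and 8.09% of all genes. Within the members no match of the sterol element shared a base with a CCAAT or GGGCGG match, and 1 CCAAT match shared bases with a GGGCGG match. Windows with no match lack these letters only.

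The 250 bases before the start are shown for 5 genes whose windows hold no annotated exon: Hmgcs1, with the full sterol element; Sc5d and Ebp, the sterol arm genes of largest and smallest log2 fold change; Fasn, a fatty acid arm gene that DESeq2 called higher; and Scap, lower in the Cre libraries. Capitals mark CCAAT or its reverse complement, and in Hmgcs1 also CACNCCAC. The windows lie at chr13:119690101-119690350 (plus strand, Hmgcs1), chr9:42264301-42264550 (minus strand, Sc5d), chrX:8193513-8193762 (minus strand, Ebp), chr11:120824548-120824797 (minus strand, Fasn) and chr9:110333038-110333287 (plus strand, Scap), each read 5′ to 3′ along its gene.
Hmgcs1: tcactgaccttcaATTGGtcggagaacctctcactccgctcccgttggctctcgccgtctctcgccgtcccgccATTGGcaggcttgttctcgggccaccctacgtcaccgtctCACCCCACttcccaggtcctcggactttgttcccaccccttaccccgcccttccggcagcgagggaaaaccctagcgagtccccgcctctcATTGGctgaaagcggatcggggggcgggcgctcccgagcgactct
Sc5d: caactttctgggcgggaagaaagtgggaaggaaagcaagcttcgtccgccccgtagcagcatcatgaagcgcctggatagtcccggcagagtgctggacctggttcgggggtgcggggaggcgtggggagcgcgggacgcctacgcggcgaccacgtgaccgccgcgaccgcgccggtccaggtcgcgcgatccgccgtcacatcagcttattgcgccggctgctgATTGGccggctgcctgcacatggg
Ebp: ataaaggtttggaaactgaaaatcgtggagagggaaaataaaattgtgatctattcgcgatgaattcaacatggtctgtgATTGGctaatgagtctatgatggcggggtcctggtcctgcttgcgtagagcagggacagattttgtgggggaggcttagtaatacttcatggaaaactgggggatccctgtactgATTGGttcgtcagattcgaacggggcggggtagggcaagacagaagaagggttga
Fasn: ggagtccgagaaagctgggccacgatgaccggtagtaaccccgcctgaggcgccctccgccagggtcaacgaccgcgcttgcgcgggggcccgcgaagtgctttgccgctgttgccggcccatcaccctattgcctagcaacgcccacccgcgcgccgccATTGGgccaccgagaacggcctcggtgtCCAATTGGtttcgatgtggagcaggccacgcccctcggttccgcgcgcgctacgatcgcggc
Scap: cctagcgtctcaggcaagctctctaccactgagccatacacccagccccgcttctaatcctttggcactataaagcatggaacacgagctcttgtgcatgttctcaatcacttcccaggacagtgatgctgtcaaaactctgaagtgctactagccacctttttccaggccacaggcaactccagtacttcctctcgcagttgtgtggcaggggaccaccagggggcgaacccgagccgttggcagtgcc

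**Figure D1:**
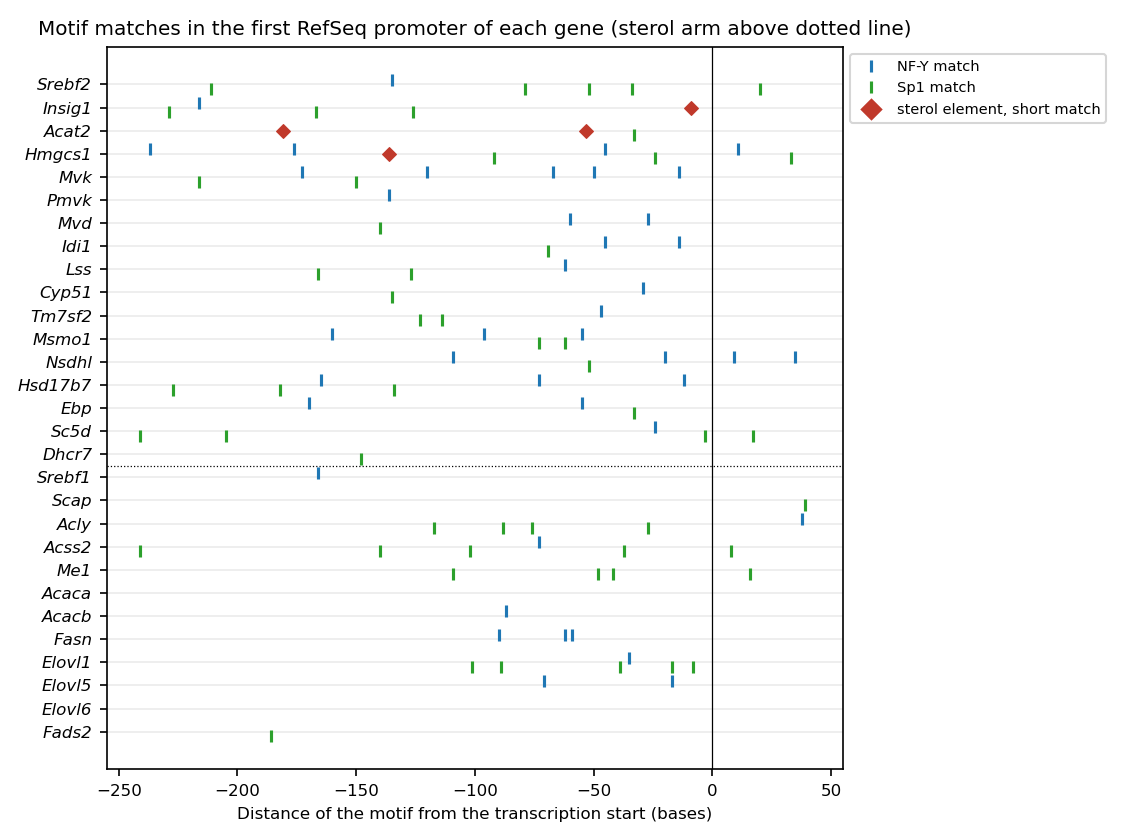
Positions of CCAAT (blue), GGGCGG (green) and CACNCCAC (red) in the first RefSeq promoter of 29 members, as the distance in bases of each match from the transcription start, with sterol arm genes above the dotted line. CACNCCAC stands at -136 in Hmgcs1, at -9 in Insig1 and at -181 and -53 in Acat2, and in no fatty acid arm gene.

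Every gene of the sterol arm had a positive log2 fold change of Car4fl/fl-CD11cCre over Car4fl/fl, from 0.10 for Ebp to 0.68 for Sc5d, with a median of 0.44. The median over all 15147 genes tested was -0.0019, and 49.4% of them lay above 0. None of the 21 passed an adjusted p of 0.05 by edgeR's quasi-likelihood test, which called 1 gene higher (0.0066% of those tested) and 1 gene lower (0.0066%, Car4) in the whole table. The smallest edgeR adjusted p among the 36 members was 0.146, for Idi1. DESeq2, run as an alternative, called 15 of the 21 higher and 0 lower, against 2.37% of all genes called higher and 1.51% called lower. EdgeR without the filter on low counts called 14 of the 21 higher, against 1.23% of all genes in that fit. With the filter it called Idi1, Cyp51 and Dhcr7 higher when the first Cre library was left out, against 1.59% of all genes, and Hmgcs1 when the third Car4fl/fl library was left out, against 0.0959%. At an unadjusted edgeR p under 0.05, 19 of the 21 lay higher and 0 lower, against 6.54% and 6.28% of all genes tested. In 18 of the 21 every Cre library lay above every Car4fl/fl library and in 0 below, against 8.63% and 9.22% of all genes tested.

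The fatty acid arm showed no common direction. Of its 15 genes 9 lay above 0 and 6 below, from -0.79 for Scd1 to 1.36 for Fads2, with a median of 0.11. EdgeR called 0 of them in either direction, and an unadjusted p under 0.05 was reached by 4 genes that lay higher and 4 that lay lower, 26.7% of the arm each way, against 6.54% and 6.28% of all genes tested. Those that lay lower were Srebf1, Scap, Elovl6 and Scd1. DESeq2 called Fasn and Fads2 higher (13.3% of the arm) and 0 lower, against 2.37% and 1.51% of all genes. EdgeR without the filter called the same 2 higher and 0 lower, against 1.23% and 0.665% of all genes in that fit. With the filter it called Fads2 higher when the first Cre library was left out, against 1.59% of all genes. The groups did not overlap in 4 genes that lay higher (26.7%) and 1 that lay lower (6.67%), against 8.63% and 9.22% of all genes tested. No test was made of the difference between the arms.

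**Figure D2:**
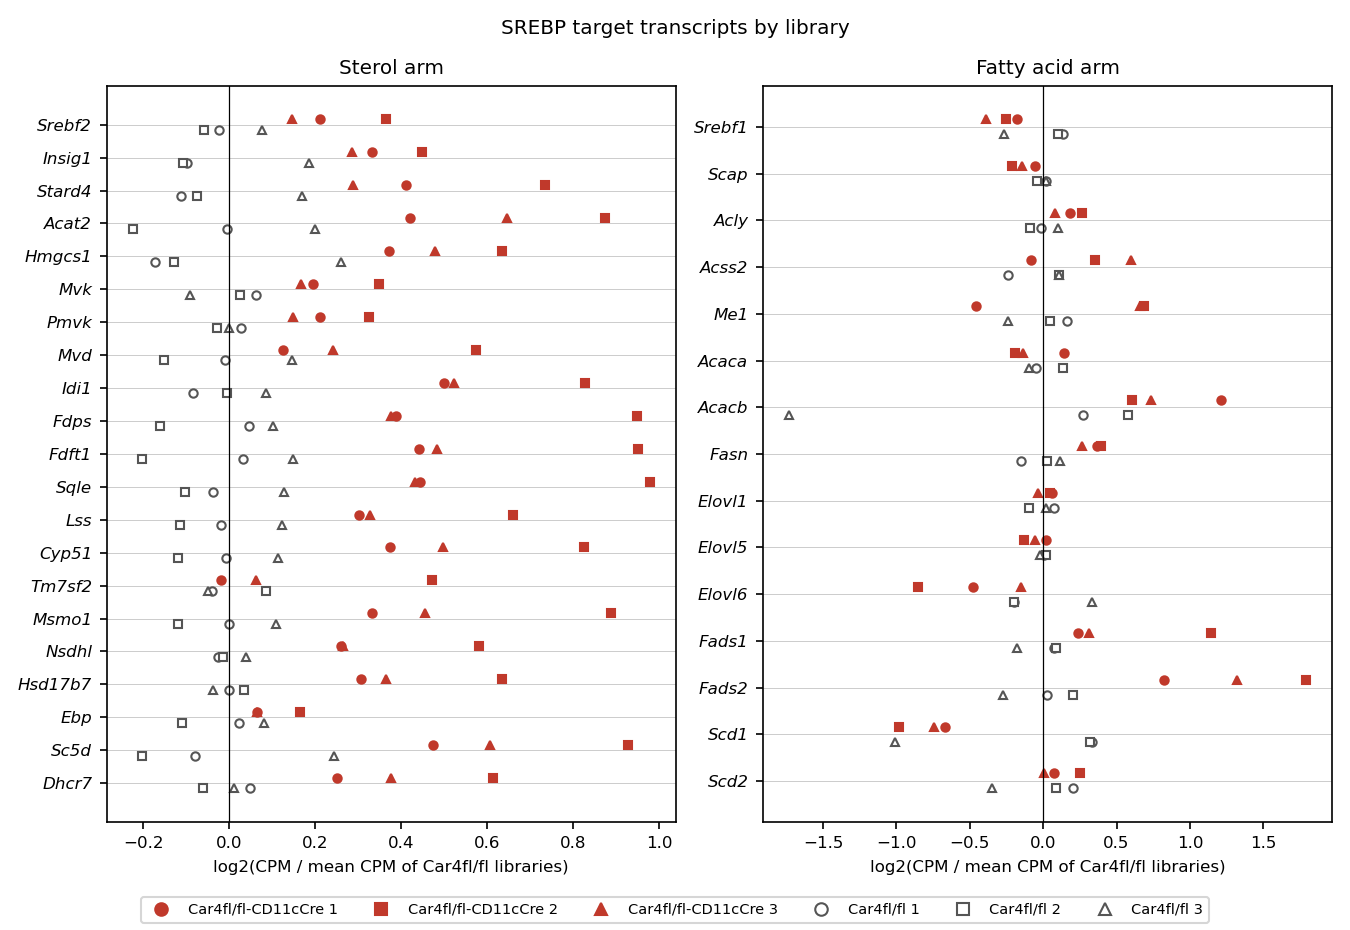
Level of each of the 36 genes in each library, as log2 of its CPM over the mean CPM of the 3 Car4fl/fl libraries (horizontal axis; the panels differ in scale), with sterol arm genes left and fatty acid arm genes right. Filled red symbols are Car4fl/fl-CD11cCre libraries and open grey symbols Car4fl/fl libraries. In the sterol arm 18 of 21 genes have all red symbols to the right of all grey ones; in the fatty acid arm 4 of 15 do.

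The regulators of the sterol arm are Srebf2 and Insig1, and Stard4 encodes a carrier that moves cholesterol between membranes. Srebf2 stood at 209.7, 233 and 200.6 CPM in the Cre libraries, against 178, 174 and 191 CPM in the Car4fl/fl libraries. The groups did not overlap, and the log2 fold change was 0.24 ± 0.07 SE (edgeR adjusted p = 0.218, DESeq2 adjusted p = 0.043). Insig1 encodes a protein that holds SCAP in the endoplasmic reticulum and is itself an SREBP target. It stood at 147, 159 and 142 CPM in Cre libraries, against 109, 108 and 133 CPM in Car4fl/fl libraries (0.36 ± 0.09, edgeR adjusted p = 0.178, DESeq2 adjusted p = 0.0079). Stard4 had 51.7, 64.7 and 47.5 CPM in Cre libraries, against 35.98, 36.9 and 43.7 CPM in Car4fl/fl libraries (0.49 ± 0.12, edgeR adjusted p = 0.181, DESeq2 adjusted p = 0.0059). For Insig1 and Stard4, as for Srebf2, the highest Car4fl/fl library was the third, and it lay below the lowest Cre library.

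The 7 genes of the mevalonate steps, which turn acetyl-CoA into isoprenoids, had a median log2 fold change of 0.50, with values from 0.23 to 0.66. Acat2 encodes the cytosolic thiolase of the first step and stood at 14.1, 19.4 and 16.5 CPM in Cre libraries, against 10.5, 9.04 and 12.1 CPM in Car4fl/fl libraries (0.66 ± 0.14, edgeR adjusted p = 0.159). An alternative median of the sterol arm left out Acat2, Fdps and Cyp51 as members with gene copies or exon overlaps, and was 0.43. Hmgcs1, which encodes the cytosolic HMG-CoA synthase and whose window holds the full sterol element, stood at 198, 237 and 213 CPM in Cre libraries, against 136, 139.9 and 183 CPM in Car4fl/fl libraries (0.50 ± 0.12, edgeR adjusted p = 0.174). The third Car4fl/fl library lay nearer to the Cre libraries than to the other Car4fl/fl libraries. The kinase genes had the smallest log2 fold changes of these steps. Mvk, encoding mevalonate kinase, averaged 17.1 ± 1.18 CPM in Cre libraries and 14.5 ± 0.79 CPM in Car4fl/fl libraries (SD, n = 3 each), a log2 fold change of 0.24. Pmvk, encoding phosphomevalonate kinase, averaged 33.0 ± 2.04 CPM in Cre libraries and 28.1 ± 0.54 CPM in Car4fl/fl libraries, a log2 fold change of 0.23. Neither kinase gene was called by DESeq2, although the groups did not overlap for either. Mvd, encoding the decarboxylase that makes isopentenyl diphosphate, stood at 95.3, 130.1 and 103 CPM in Cre libraries, against 86.8, 78.6 and 96.7 CPM in Car4fl/fl libraries, so that the groups overlapped (0.33 ± 0.12, edgeR adjusted p = 0.333).

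Idi1 encodes the isomerase that interconverts the isoprenoid units. It stood at 12.999, 16.3 and 13.2 CPM in Cre libraries, against 8.67, 9.16 and 9.75 CPM in Car4fl/fl libraries. The gap between the groups was wider than the range within the Car4fl/fl libraries, with a 1.54-fold difference (log2 0.63 ± 0.11, edgeR adjusted p = 0.146, DESeq2 adjusted p = 0.00019). Fdps encodes farnesyl diphosphate synthase and was counted at 3.09, 4.56 and 3.06 CPM in Cre libraries, against 2.44, 2.11 and 2.53 CPM in Car4fl/fl libraries (0.60 ± 0.20, edgeR adjusted p = 0.270, DESeq2 adjusted p = 0.133). Its exons share 1124 bases, 26.7% of their length, with the predicted gene Gm43738 on the same strand, so its count is uncertain.

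The 3 genes from squalene to lanosterol had the largest median of any segment, 0.64. Fdft1 encodes squalene synthase, the first enzyme committed to sterols, and stood at 41.8, 59.5 and 43.1 CPM in Cre libraries, against 31.5, 26.8 and 34.2 CPM in Car4fl/fl libraries (0.64 ± 0.15, edgeR adjusted p = 0.161, DESeq2 adjusted p = 0.0010). Its exons share 774 bases, 18.3% of their length, with Ctsb on the opposite strand, and no source used here gives the strand setting of the counting. Sqle encodes squalene epoxidase, a rate-limiting enzyme of the late pathway, and stood at 74.9, 108 and 74.2 CPM in Cre libraries, against 53.7, 51.3 and 60.2 CPM in Car4fl/fl libraries (0.64 ± 0.15, edgeR adjusted p = 0.161). In both genes the second Cre library was far above the other Cre libraries, which lay close to each other. Lss, encoding lanosterol synthase, had 34.5, 44.3 and 35.1 CPM in Cre libraries, against 27.6, 25.9 and 30.5 CPM in Car4fl/fl libraries (0.44 ± 0.11, edgeR adjusted p = 0.174).

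The 8 genes from lanosterol to cholesterol had a median of 0.43. EdgeR called 0 of them, and DESeq2 called 6 higher, against 2.37% of all genes. Cyp51 encodes lanosterol demethylase and stood at 121, 165 and 132 CPM in Cre libraries, against 93.0, 86.1 and 101 CPM in Car4fl/fl libraries (0.58 ± 0.12, edgeR adjusted p = 0.147, DESeq2 adjusted p = 0.00014). Msmo1, Nsdhl and Hsd17b7 encode the enzymes that remove the methyl groups at C-4. Msmo1 stood at 83.7, 123 and 91.2 CPM in Cre libraries, against 66.5, 61.3 and 71.7 CPM in Car4fl/fl libraries (0.58 ± 0.14, edgeR adjusted p = 0.170). Nsdhl averaged 37.5 ± 4.92 CPM in Cre libraries and 28.9 ± 0.68 CPM in Car4fl/fl libraries (SD, n = 3 each), a log2 fold change of 0.38. Hsd17b7 averaged 31.3 ± 3.91 CPM in Cre libraries and 23.0 ± 0.59 CPM in Car4fl/fl libraries, a log2 fold change of 0.44. The groups did not overlap for any of the 3.

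The other genes of this segment were uneven. Sc5d encodes lathosterol 5-desaturase and stood at 31.4, 43.1 and 34.5 CPM in Cre libraries, against 21.4, 19.7 and 26.8 CPM in Car4fl/fl libraries, a 1.61-fold difference (log2 0.68 ± 0.15, edgeR adjusted p = 0.157). Dhcr7, which encodes 7-dehydrocholesterol reductase, had 70.02, 89.97 and 76.3 CPM in Cre libraries, against 60.8, 56.4 and 59.3 CPM in Car4fl/fl libraries (0.42 ± 0.09, edgeR adjusted p = 0.157). Ebp and Tm7sf2 stood apart from the rest. Ebp, encoding the sterol isomerase, had 61.1, 65.4 and 61.1 CPM in Cre libraries, against 59.3, 54.1 and 61.7 CPM in Car4fl/fl libraries (0.10, 95% interval -0.04 to 0.24). Tm7sf2, encoding a sterol 14-reductase, had 6.78, 9.51 and 7.17 CPM in Cre libraries, against 6.67, 7.28 and 6.63 CPM in Car4fl/fl libraries (0.19, 95% interval -0.14 to 0.52), or 0.02 without the second Cre library. The groups overlapped for both, and the windows of both hold CCAAT. The exons of Tm7sf2 share 532 bases, 12.1% of their length, with Vps51 on the same strand.

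In the fatty acid arm the regulators lay lower. Srebf1 stood at 145, 137 and 125 CPM in Cre libraries, against 180.3, 176 and 136 CPM in Car4fl/fl libraries. The third Car4fl/fl library lay among the Cre libraries, and the log2 fold change was -0.27 ± 0.11 (edgeR adjusted p = 0.365). Scap, which serves both SREBPs, stood at 87.5, 78.3 and 82.1 CPM in Cre libraries, against 91.97, 88.0 and 92.1 CPM in Car4fl/fl libraries, with no overlap (-0.13 ± 0.06, edgeR adjusted p = 0.375). The count of Srebf2 over that of Srebf1 in the same library, which needs no scaling between libraries, was 1.45, 1.70 and 1.605 in Cre libraries, against 0.99, 0.99 and 1.40 in Car4fl/fl libraries. The groups did not overlap (two-sided exact permutation p = 0.10, the smallest that 3 against 3 libraries allow).

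**Figure D3:**
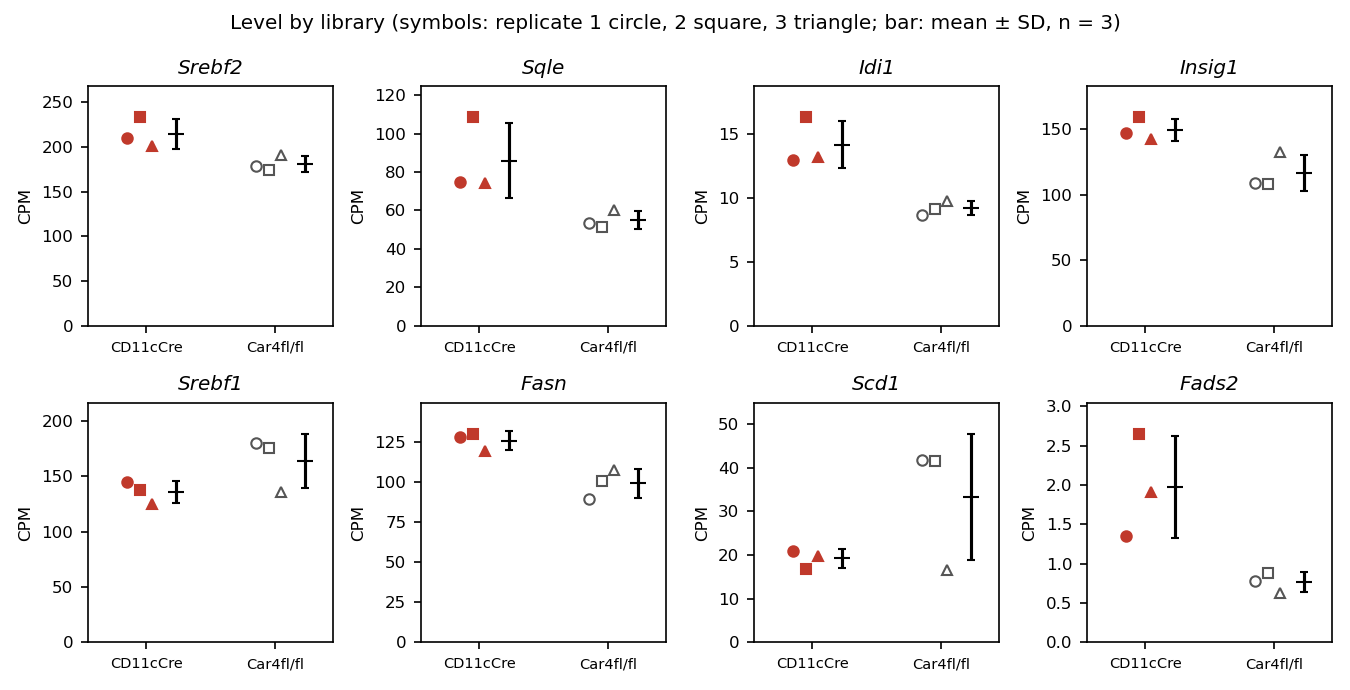
CPM of 8 genes by library in Car4fl/fl-CD11cCre (red, left) and Car4fl/fl (grey, right) with mean ± SD (n = 3), each panel from 0. For Srebf2, Sqle, Idi1, Insig1, Fasn and Fads2 all Cre libraries lie above all Car4fl/fl libraries. For Srebf1 and Scd1 the third Car4fl/fl library (triangle), at 136 and 16.5 CPM, lies among or below the Cre libraries.

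Acly, Acss2 and Me1 supply acetyl-CoA and NADPH. Acly encodes ATP citrate lyase, which feeds both arms, and stood at 523, 553 and 486 CPM in Cre libraries, against 455, 432 and 494 CPM in Car4fl/fl libraries (0.18 ± 0.07, edgeR adjusted p = 0.371). The groups overlapped through the third Car4fl/fl library. Acss2, encoding acetyl-CoA synthetase, averaged 4.33 ± 0.99 CPM in Cre libraries and 3.48 ± 0.47 CPM in Car4fl/fl libraries (SD, n = 3 each). Me1, encoding malic enzyme, averaged 1.03 ± 0.39 CPM in Cre libraries and 0.79 ± 0.11 CPM in Car4fl/fl libraries. The first Cre library was the lowest of the 6 for Me1, and neither gene passed an unadjusted p of 0.05.

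Fasn, which encodes fatty acid synthase, lay higher with the sterol arm. It stood at 128, 130.0 and 119 CPM in Cre libraries, against 89.4, 100.7 and 107 CPM in Car4fl/fl libraries, without overlap (0.34 ± 0.07, edgeR adjusted p = 0.159, DESeq2 adjusted p = 0.0031). Acaca, encoding the cytosolic acetyl-CoA carboxylase that makes malonyl-CoA for fatty acid synthase, stood at 29.9, 23.7 and 24.6 CPM in Cre libraries, against 26.2, 29.7 and 25.3 CPM in Car4fl/fl libraries (-0.06, 95% interval -0.29 to 0.18). Acacb, its mitochondrial counterpart, was at 32, 23 and 21 counts in Cre libraries, against 17, 21 and 4 counts in Car4fl/fl libraries, so that the lowest Cre and the highest Car4fl/fl library held equal counts. The groups were apart only after scaling, at 0.356 CPM in the lowest Cre library and 0.349 CPM in the highest Car4fl/fl library, and the log2 fold change was 0.86 ± 0.50 (edgeR adjusted p = 0.544), or 0.44 without the third Car4fl/fl library.

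The elongases differed among themselves. Elovl1 and Elovl5, for saturated and monounsaturated very long chains and for polyunsaturated chains, had log2 fold changes of 0.02 (95% interval -0.11 to 0.16) and -0.06 (-0.18 to 0.07). Elovl6, which lengthens palmitate, had 18.3, 14.1 and 22.96 CPM in Cre libraries, against 22.2, 22.3 and 32.1 CPM in Car4fl/fl libraries (-0.47 ± 0.20, edgeR adjusted p = 0.388). The third library was the highest of its group in both genotypes, and the groups overlapped.

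The desaturases included both extremes of the fatty acid arm. Fads2 encodes delta-6 desaturase, the first enzyme of polyunsaturated fatty acid synthesis, and stood at 1.35, 2.65 and 1.91 CPM in Cre libraries, against 0.78, 0.88 and 0.63 CPM in Car4fl/fl libraries. That is a 2.57-fold difference without overlap (log2 1.36 ± 0.29, edgeR adjusted p = 0.153, DESeq2 adjusted p = 0.0034), on 80 to 171 counts in Cre libraries and 36 to 53 counts in Car4fl/fl libraries. Fads1, its neighbour on chromosome 19, encodes delta-5 desaturase and stood at 12.0, 22.5 and 12.6 CPM in Cre libraries, against 10.7, 10.8 and 9.01 CPM in Car4fl/fl libraries. The groups did not overlap, and the second Cre library was the furthest away (0.63 ± 0.24, edgeR adjusted p = 0.330, DESeq2 adjusted p = 0.082). Without that library the log2 fold change of Fads1 was 0.27 (edgeR adjusted p = 0.509).

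Scd1 and Scd2, also neighbours on chromosome 19, encode the delta-9 desaturases that make monounsaturated fatty acids and have similar sequences, so reads may be shared between them. Scd1 stood at 20.9, 16.8 and 19.8 CPM in Cre libraries, against 41.8, 41.4 and 16.5 CPM in Car4fl/fl libraries. The first and second Car4fl/fl libraries were far above every Cre library, and the third was below all of them (-0.79 ± 0.31, edgeR adjusted p = 0.351, DESeq2 adjusted p = 0.444). Without the third Car4fl/fl library the log2 fold change of Scd1 was -1.12 (edgeR adjusted p = 0.013). Scd2 stood at 98.6, 112 and 94.4 CPM in Cre libraries, against 107.9, 99.9 and 73.7 CPM in Car4fl/fl libraries (0.11 ± 0.14, edgeR adjusted p = 0.803). The count of Scd2 over Scd1 was 4.71, 6.64 and 4.76 in Cre libraries, against 2.58, 2.41 and 4.46 in Car4fl/fl libraries, without overlap (two-sided exact permutation p = 0.10, the smallest possible).

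Read by library, the arms were ordered differently. The sterol arm's median log2 ratio to the Car4fl/fl mean was 0.33, 0.64 and 0.37 in the Cre libraries, against -0.01, -0.11 and 0.11 in the Car4fl/fl libraries. The second Cre library was the highest of its group for all 21 sterol arm genes and for 6 of the 15 fatty acid arm genes. The third Car4fl/fl library was the highest of its group for 16 of the 21 sterol arm genes and the lowest for 9 of the 15 fatty acid arm genes. The fatty acid arm median was 0.06, 0.25 and 0.01 in Cre libraries, against 0.03, 0.09 and -0.09 in Car4fl/fl libraries. The sterol median minus the fatty acid median was 0.27, 0.38 and 0.36 in Cre libraries, against -0.04, -0.20 and 0.20 in Car4fl/fl libraries. Summed over the arm, sterol genes held 1369, 1706 and 1406 CPM in Cre libraries, against 1083, 1041 and 1218 CPM in Car4fl/fl libraries. Fatty acid genes summed to 1372, 1379.6 and 1282 CPM in Cre libraries, against 1333, 1297 and 1286 CPM in Car4fl/fl libraries.

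**Figure D4:**
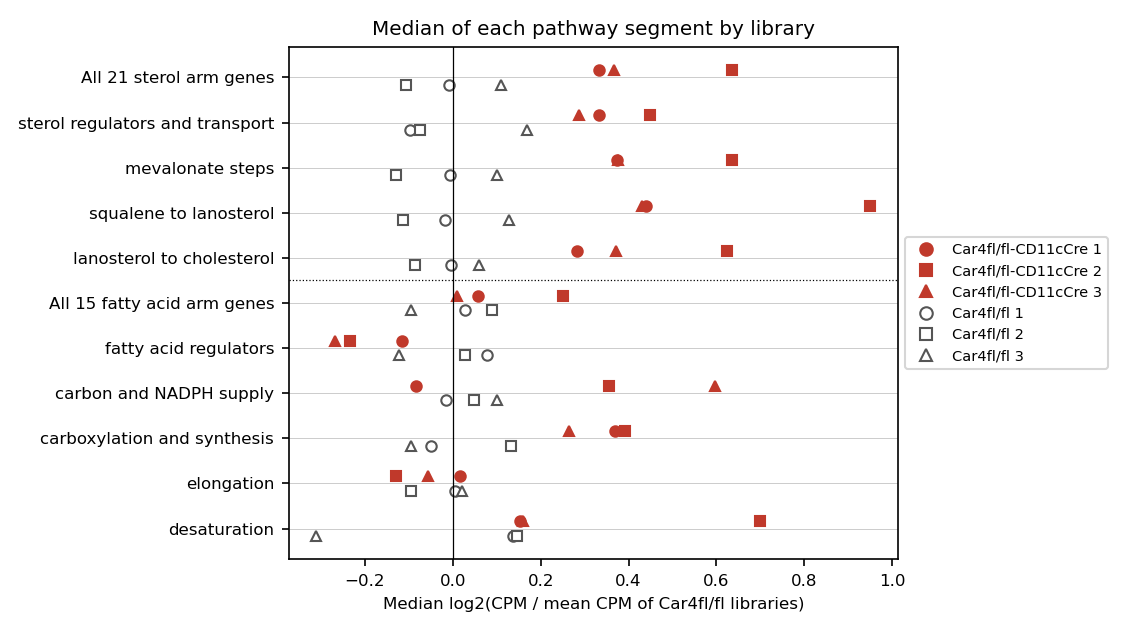
Median log2 ratio of CPM to the Car4fl/fl mean, by library, for each arm and each of its segments (rows), with Car4fl/fl-CD11cCre libraries filled red and Car4fl/fl libraries open grey. In all 4 sterol segments the Cre libraries lie right of the Car4fl/fl libraries; among the fatty acid segments this holds for carboxylation and synthesis and for desaturation.

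On the scale of CPM per kilobase of annotated exon, which allows genes to be compared, the levels in these cells ranged widely. Acly was the most abundant, with a mean of 98.7 in Cre libraries and 87.2 in Car4fl/fl libraries. In Cre libraries Mvd followed at 58.9, Elovl5 at 52.0, Insig1 at 48.3 and Hmgcs1 at 47.0, against 47.0 for Mvd, 54.0 for Elovl5, 37.7 for Insig1 and 33.3 for Hmgcs1 in Car4fl/fl libraries. Srebf2 and Srebf1 lay at 29.9 and 24.1 in Cre libraries, against 25.2 and 29.1 in Car4fl/fl libraries, so that the order of the 2 means differed between the genotypes. The lowest levels were those of Fdps, Fads2, Acss2, Me1 and Acacb. They lay between 0.045 (Acacb) and 0.85 (Fdps) in Cre libraries, against 0.024 (Acacb) and 0.56 (Fdps) in Car4fl/fl libraries. The level of Fdps, and so its place in this order, is uncertain, as 26.7% of its exon length is shared with Gm43738.

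**Figure D5:**
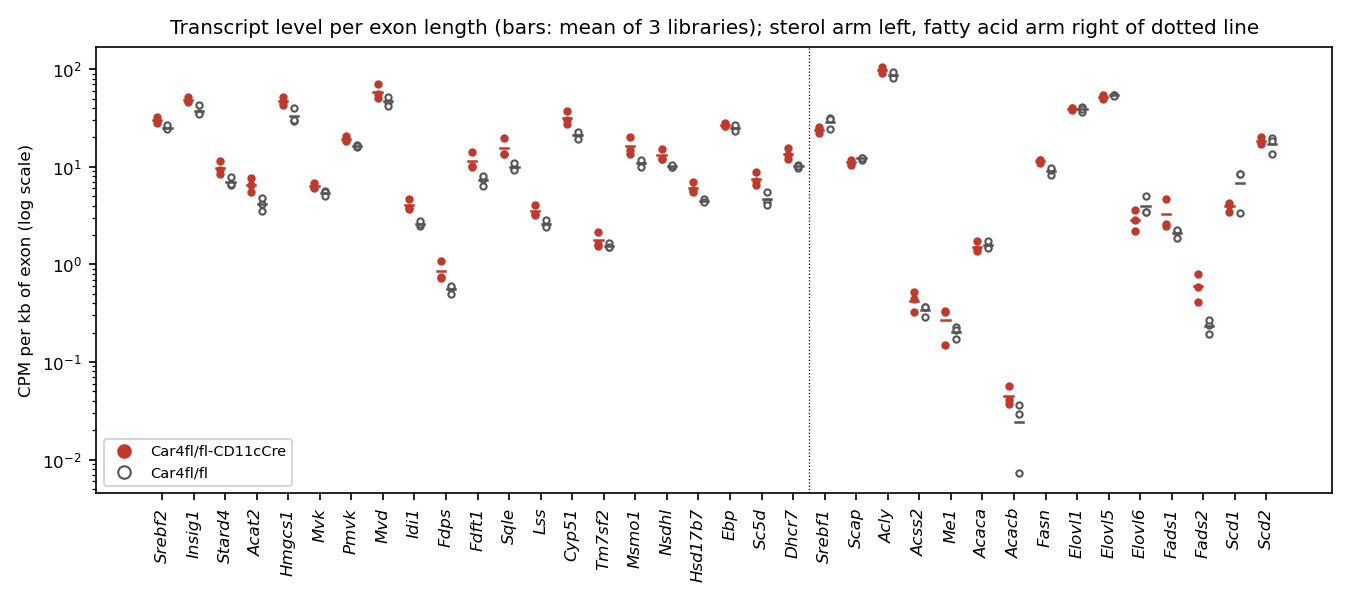
CPM per kilobase of exon on a log scale for the 36 genes, sterol arm left and fatty acid arm right of the dotted line, with each library as a point and the mean of 3 as a bar, Car4fl/fl-CD11cCre (red) left of Car4fl/fl (grey) for each gene. Acly is highest and Acacb lowest in both genotypes.

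Genes of related pathways that are no members were read from the same fit, and edgeR called 0 of those in the 4 lists given next. The 10 genes of SREBP processing (the proteases, Insig2 and other factors) had a median log2 fold change of 0.0034, with 5 above and 5 below 0 and none at an unadjusted p under 0.05 or called by DESeq2. Mbtps1, the site-1 protease, averaged 98.8 ± 4.59 CPM in Cre libraries and 96.9 ± 0.47 CPM in Car4fl/fl libraries (SD, n = 3 each). Insig2 stood at 23.2, 22.9 and 23.2 CPM in Cre libraries, against 22.1, 22.0 and 22.9 CPM in Car4fl/fl libraries, beside the values of Insig1 above.

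The 16 tested genes of other sterol handling had a median of 0.07. At an unadjusted edgeR p under 0.05, 3 lay higher and 2 lower, against 6.54% and 6.28% of all genes tested. Npc2 and Npc1, which export cholesterol from lysosomes, were the most abundant, at 599 ± 49.4 and 448 ± 18.3 CPM in Cre libraries, against 540.4 ± 29.0 and 442 ± 15.5 CPM in Car4fl/fl libraries. DESeq2 called 0 of the 16 higher and 1 lower, against 2.37% and 1.51% of all genes. The one lower was Cyb5r3, a cytochrome b5 reductase, at 346.8 ± 20.98 CPM in Cre libraries and 433 ± 43.2 CPM in Car4fl/fl libraries (DESeq2 adjusted p = 0.013). The 24 tested genes of other fatty acid metabolism had a median of -0.01. Of these, 2 lay higher and 1 lower at that threshold, against the same shares of all genes tested. Lpin1, a phosphatidate phosphatase, averaged 360.2 ± 48.6 CPM in Cre libraries and 365 ± 24.7 CPM in Car4fl/fl libraries, and Acsl5, an acyl-CoA synthetase, averaged 169 ± 4.78 CPM in Cre libraries and 166 ± 7.91 CPM in Car4fl/fl libraries. DESeq2 called 1 of the 24 higher and 0 lower, against the same 2.37% and 1.51% of all genes. The one higher was Acsl3, another acyl-CoA synthetase, at 6.49 ± 1.202 CPM in Cre libraries and 4.32 ± 0.15 CPM in Car4fl/fl libraries (DESeq2 adjusted p = 0.022).

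The 7 targets or members of the liver X receptor system, which responds to oxysterols and drives cholesterol export, had a median of -0.14. At an unadjusted edgeR p under 0.05, 0 lay higher and 3 lower, against 6.54% and 6.28% of all genes tested. DESeq2 called 0 of the 7 higher and 1 lower, Mylip, against 2.37% and 1.51% of all genes. Abcg1, a cholesterol exporter, averaged 2410 ± 315 CPM in Cre libraries and 2722 ± 158 CPM in Car4fl/fl libraries. Nceh1, a cholesteryl ester hydrolase, averaged 969 ± 44.2 CPM in Cre libraries and 1069 ± 12.4 CPM in Car4fl/fl libraries. Mylip, a ubiquitin ligase for lipoprotein receptors, stood at 78.4, 52.5 and 73.3 CPM in Cre libraries, against 99.3, 100.8 and 89.8 CPM in Car4fl/fl libraries, without overlap (-0.51 ± 0.14, DESeq2 adjusted p = 0.0092). Siglecf, Chil3, Cyb5r3, Acsl3 and Mylip are named because DESeq2 called them, and Insig2 beside Insig1, all chosen after their values were seen.

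Markers of other cells were read in the same libraries. The 11 interstitial macrophage markers summed to 309, 469 and 776 CPM in Cre libraries, against 300.04, 295 and 311 CPM in Car4fl/fl libraries. DESeq2 called 5 of them higher and 1 lower, against 2.37% and 1.51% of all genes. Their log2 fold changes lay above 0 for 8 and below 0 for 3, from -1.53 to 3.81, with a median of 0.90. C1qa, a complement gene, is shown as a single example of those above 0, not picked by a fixed rule. C1qa made up a small part of these sums and does not stand for the 11 markers. It stood at 1.88, 12.4 and 18.2 CPM in Cre libraries, against 0.68, 1.01 and 0.72 CPM in Car4fl/fl libraries. The sterol arm medians of the same Cre libraries, in the same order, were 0.33, 0.64 and 0.37. The part of these markers in the sterol arm values was not tested. Summed markers of neutrophils lay between 101 and 110.5 CPM in Cre libraries and between 85.9 and 95.4 CPM in Car4fl/fl libraries, and those of endothelium, mostly Vwf, between 166 and 191 CPM in Cre libraries and between 130.3 and 151 CPM in Car4fl/fl libraries. Sums for alveolar type 2 cells, which also make lipid, were 299, 231 and 234 CPM in Cre libraries, against 253, 237 and 249 CPM in Car4fl/fl libraries, and those of 10 proliferation genes 601, 590.05 and 604 CPM in Cre libraries, against 539, 582 and 599.6 CPM in Car4fl/fl libraries. The sums of monocyte, dendritic, lymphocyte, airway, fibroblast and adipocyte markers overlapped between groups or were lower in Cre libraries. The 4 adipocyte genes summed to 7.27, 6.51 and 6.93 CPM in Cre libraries, against 5.10, 6.04 and 9.13 CPM in Car4fl/fl libraries. Of these genes 1, Lep, was at 0 in all libraries. In RNA of whole sorted samples, a different share of cells with high levels and a different level per cell cannot be told apart.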

How the data were processed

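Polyadenylated mRNA of 6 samples was sequenced, per the labels' protocols. The authors deposited whole-number counts per gene, unnormalised; the submitters' processing notes name STAR 2.6.1, featureCounts 1.6.4 and the build GRCm38 among other tools, with no role or order. Columns were assigned through the library names in the labels. Members and gene lists were chosen with earlier results of these data known.

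Counts were analysed with edgeR 4.0.16 (R 4.3.3). Low genes were removed by filterByExpr at a minimum count of 10, TMM factors were applied, and genotypes were compared by the two-sided quasi-likelihood test (glmQLFit, glmQLFTest). P-values were adjusted by Benjamini-Hochberg over all 15147 genes that passed, with a threshold of 0.05. Standard errors are the absolute log2 fold change over the square root of F, and intervals are at 95%. The biological coefficient of variation was 14.4%. DESeq2 1.42.0, limma-voom (limma 3.58.1), other scalings and filters, a replicate block and leaving out each library were alternatives, and the script was tested on simulated data. DESeq2 gave an adjusted p for 14547 genes. The groups are mice of 2 genotypes, and p-values weigh the difference between them against the spread among libraries of a group. Libraries of a group differed beyond sampling noise (chi-square per degree of freedom 19.6 to 51.4).

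Lengths, coordinates and exon overlaps come from GENCODE M21, where 45229 of 46078 identifiers were found, and promoters from RefSeq (GRCm38.p6). Beside the overlaps given above, exons of Scap, Hmgcs1 and Idi1 share 13.2%, 12.1% and 9.2% of their length with opposite-strand genes. Their counts are uncertain to that extent, as the strand setting is not known. Exon length is the union over transcripts, which lowers the level per kilobase of genes with long rare exons. Named are all members, Car4, and from each related list the 2 tested genes of highest mean CPM, since edgeR called none there. A gene that this rule names is not reported here. Lists of markers covered 12 cell types or states: alveolar and interstitial macrophages, monocytes, dendritic cells, neutrophils, lymphocytes, alveolar type 2 cells, airway epithelium, fibroblasts, endothelium, adipocytes and proliferation. Segments of each arm follow textbook order. Floors of 3 counts cover counting error only. Figures used matplotlib 3.10.9 (Python 3.11.15).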

Additional observations from a re-analysis of the deposited data

How the results depend on the processing

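All sterol arm members tested lay above 0 under every alternative run, with arm medians between 0.34 and 0.50. Calls and some values changed. By DESeq2 345 genes were called higher and 219 lower, with 15 sterol and 2 fatty acid members higher. With no filter on low counts, edgeR called 340 higher and 183 lower, with 14 sterol and 2 fatty acid members higher. With the replicate block it called 8 higher and 2 lower and 0 members. Same-numbered libraries had correlations of deviations of -0.03, -0.19 and 0.04, against -0.21 to 0.25 for differently numbered ones. These are few values, centred within groups of 3 libraries, and cannot decide whether the numbers pair the libraries. Robust dispersions gave 0 genes lower. Limma-voom, 2 other scalings, the stricter filter and newer glmQLFit settings (chosen after seeing the data) also called 0 members. Leaving out 1 library moved the genes called higher between 1 and 249 and lower between 0 and 52, sterol members higher between 0 and 3, fatty acid members higher between 0 and 1 and lower between 0 and 1. Without the first Cre library 249 and 37 genes were called, with Idi1, Cyp51, Dhcr7 and Fads2 higher; without the third Car4fl/fl library 15 and 52, with Hmgcs1 higher and Scd1 lower; without the second Cre library 8 were called higher. Leaving out the second Cre library lowered the log2 fold change of Tm7sf2 to 0.02 (0.19 with all libraries), of Mvd to 0.18 (0.33), of Fdps to 0.38 (0.60) and of Fads1 to 0.27 (0.63); leaving out the third Car4fl/fl library lowered that of Acacb to 0.44 (0.86) and took that of Elovl6 to -0.27 (-0.47). The cause of these differences was not tested.

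The fatty acid arm median was -0.048 with at least 5 CPM in 3 libraries, which left 11 of its members. The sign turned in 4 leave-one-out fits, all of small values: Acaca lay between -0.17 and 0.015 (0.0085 without the second Cre library), Elovl1 between -0.023 and 0.060, and Scd2 between -0.038 and 0.23. The sterol element was found for 1 sterol arm gene in its longer form and 3 in its shorter form. At 3 libraries a group, log2 fold changes whose 95% intervals include 0 were not resolved from 0. The intervals are not adjusted for the number of genes tested. Genes under 1 CPM, Acacb above all, rest on few counts.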
